A study of Mus musculus with 4 samples.

Results

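The Dickkopf proteins Dkk1, Dkk2, Dkk3 and Dkk4, the Dickkopf receptors Kremen1 and Kremen2, and the low density lipoprotein receptor related proteins Lrp4, Lrp5 and Lrp6 were followed through the developing mouse molar. These 9 genes were taken by symbol from the 32285 genes of the count tables, and each had 1 row. Single-cell RNA sequencing (10x, polyA RNA) covered wild-type mice labelled WTB6, with 1 library each for the maxillary and the mandibular molar tooth organ of embryos and of pups. The embryos are labelled E15 in the sample table and E15.5 in the protocol, and the pups P1 in the table and P0/P1 in the protocol. Each library pooled 6 tooth organs, no animal carried an engineered allele and none was treated. The question put to the data was where these inhibitors and co-receptors were transcribed among the cell types of the tooth, and how this differed between stages and jaws.

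Wnt ligands signal through Frizzled receptors together with the co-receptors Lrp5 and Lrp6, which sends β-catenin to the nucleus. Dkk1, Dkk2 and Dkk4 are secreted proteins that bind Lrp5 and Lrp6 and keep them from the Wnt–Frizzled complex, and the Kremen proteins bind these Dickkopfs at the cell surface and can take the co-receptor out of the membrane. Dkk3 is the divergent member of the family and is not an established ligand of Lrp5 or Lrp6. Lrp4 is a related receptor that binds agrin at the neuromuscular junction and also binds the Wnt inhibitors sclerostin and Sostdc1. In the tooth, the enamel knot is the transient epithelial signalling center of the cap stage, the dental papilla gives rise to the pulp and to odontoblasts that secrete dentin, and the dental follicle gives rise to the periodontium.

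The deposited tables held 10885 (E15.5 maxillary), 7947 (E15.5 mandibular), 18707 (P1 maxillary) and 19401 (P1 mandibular) barcodes, with 109723360, 86659227, 128812956 and 139873101 UMIs. The rule of at least 1000 UMIs, with the P1 mandibular barcodes that also occur in the P1 maxillary library dropped, was met by 10073, 6911, 17040 and 10120 of them. After removal of cells with a high mitochondrial share and of likely doublets, 8331, 6007, 13492 and 7360 cells remained, with medians of 9882, 11572, 3929 and 10885 UMIs. The P1 libraries shared 7131 barcodes, against 28 to 70 for the other pairs of libraries. In these shared barcodes the maxillary library held a median of 4.21 times the UMIs of the mandibular library, and the 9 genes had nearly the same levels in both, for example 80.2 and 78.6 CPM for Dkk1. Shared barcodes made up 97.6% of the P1 maxillary odontoblasts, 98.9% of its papilla cells, 99.1% of its ameloblast lineage, 96.4% of its knot-marker epithelium, 24.8% of its follicle and 1.0% of its jaw mesenchyme. From which jaw these cells came cannot be told apart, so the unshared barcodes are given below, for the genes named there, beside comparisons that use a P1 maxillary class with many shared cells.

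Cells were clustered per library without the 9 genes and without other Wnt pathway genes, and clusters were named from marker genes. Each name stands for cells like that type. A level is the sum of UMIs of a gene over the cells of a class per 1000000 UMIs of that class (CPM), with an exact Poisson interval at 95%, which covers counting error only. With 1 library per stage and jaw there was no replicate and no test between conditions. Levels were compared within a gene, not between genes. Where a count of 0 is said to allow up to a level, that level is the one 3 UMIs would give. The exact interval at 95% reaches higher, for example 1.43 against 1.16 CPM for Kremen2 in the E15.5 maxillary papilla. Erythroid cells, which should lack all 9 genes, gave the background from free RNA, at 0 to 3.71 CPM for Dkk1, 1.92 to 3.95 CPM for Dkk2, 0 to 1.69 CPM for Lrp4 and 1.42 to 5.51 CPM for Lrp6.

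The odontoblasts were found at P1 only and had Dspp, which encodes dentin sialophosphoprotein, at 187 CPM (maxillary, 289 cells) and 2042 CPM (mandibular, 129 cells), with the other odontoblast markers Dmp1, Phex, Smpd3, Sall1 and Nes all detected. Dspp alone did not mark them, since the ameloblast lineage held 1882 and 2069 CPM of it, and Smpd3 was at 2417 and 1851 CPM in the odontoblasts. Bone markers were also high there, with a sum of 3495 and 7916 CPM over 9 of 9 genes, led by the osteocalcin gene Bglap at 1127 and 4369 CPM. Among the 10 leading genes of the maxillary odontoblast cluster were 3 bone markers against 2 odontoblast markers, so this cluster was compared only within its own library. The single papilla cluster of the E15.5 mandibular library (123 cells) had Alx1, a marker of facial mesenchyme, and no papilla marker among its leading genes, and it held 6571 CPM of erythroid marker UMIs. Its values are given without a comparison between stages or jaws. The same holds for 3 other classes in which at least 1 cluster had more markers of another class than of its own among its 10 leading genes. These were 1 of 7 clusters of the P1 mandibular papilla (74 of 1620 cells, with Alx1), 2 of 4 of the P1 maxillary follicle (437 and 440 cells, both with Runx2) and 1 of 4 of the E15.5 mandibular jaw mesenchyme (186 cells). Levels given for these classes below are those of clusters whose names are in doubt to that extent. At E15.5 an epithelial cluster led by Shh and Vwde also had the knot marker Fgf4, at 79.1 CPM (maxillary, 31 cells) and 56.9 CPM (mandibular, 18 cells). At P1 the clusters with the same leading markers had Fgf4 at 1.51 and 9.21 CPM, so they are called knot-marker epithelium rather than enamel knot. Erythroid marker UMIs summed to 442 and 9359 CPM in the E15.5 maxillary and mandibular knot-marker clusters and to 2921 and 970 CPM in those of P1, and their part in the levels and jaw differences given below was not tested.

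**Figure D1:**
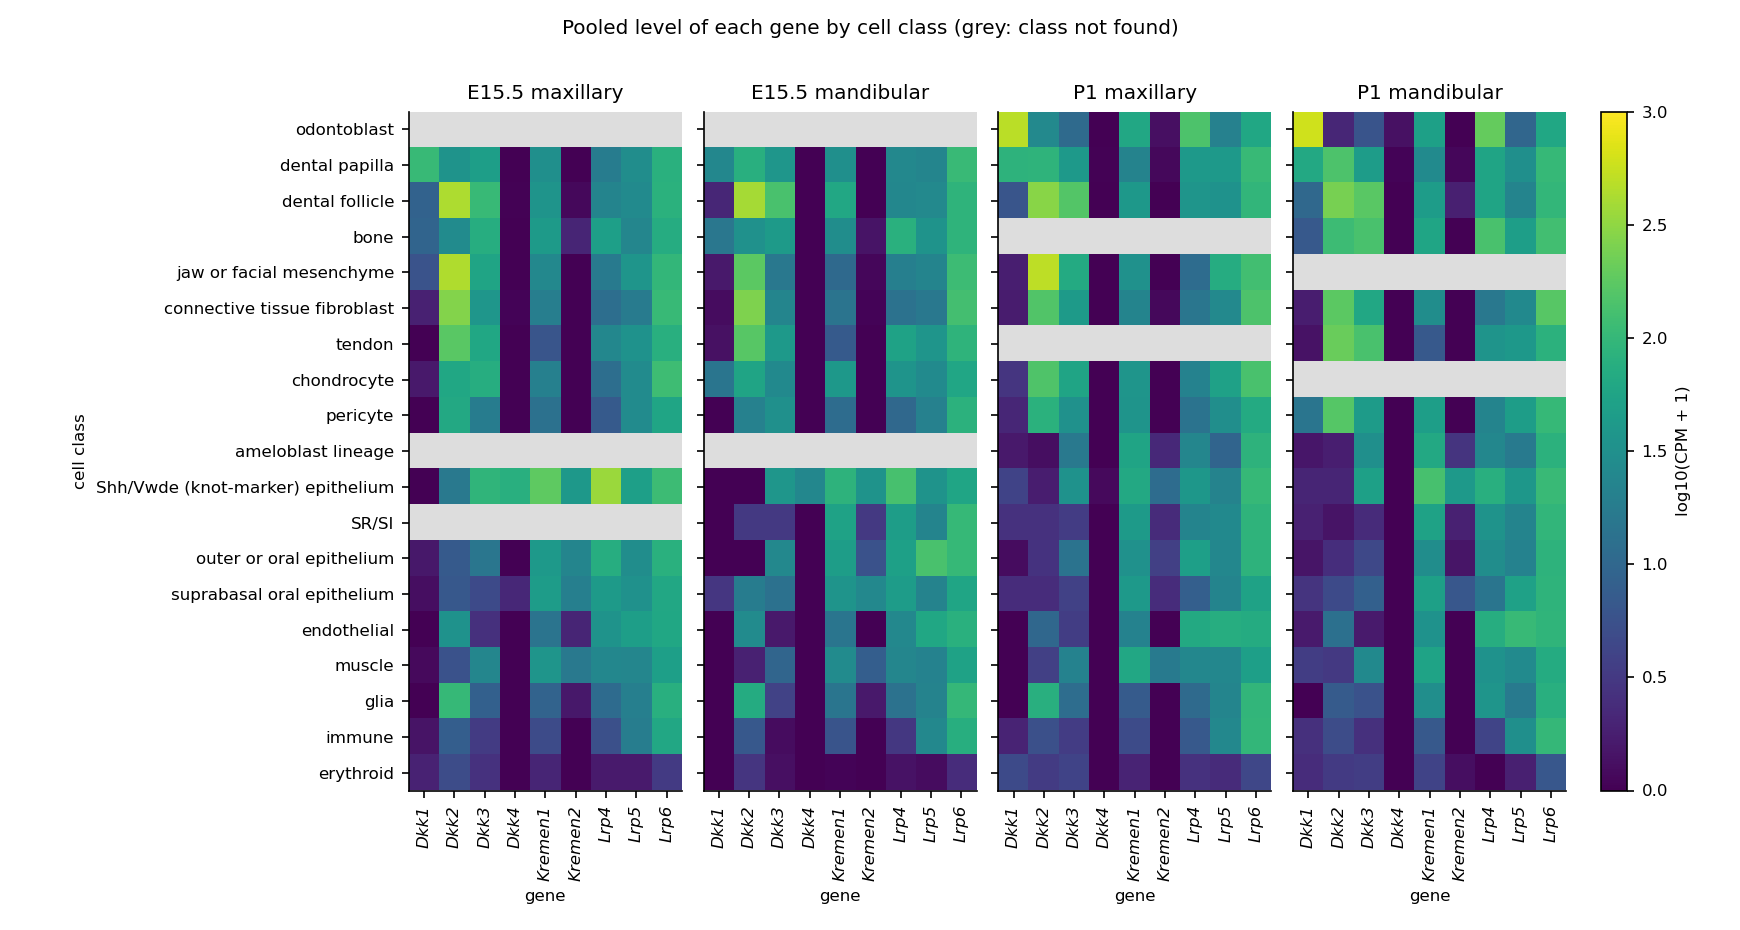
Pooled level of each of the 9 genes (columns) in each cell class (rows) of the 4 libraries, on a color scale of log10(CPM + 1), with grey where a class was not found. Dkk1 was highest in P1 odontoblasts, Dkk2 in follicle or jaw mesenchyme, and Dkk4 was close to 0 outside the E15.5 knot-marker clusters.

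Dkk1 lies at chr19:30545863-30549665 on the minus strand and Dkk2 at chr3:132085292-132180304 on the plus strand of mm10. Since these genes differed between papilla and odontoblasts in opposite directions, their promoter sequences are shown, from the RefSeq table for GRCm38.p6, which held an entry for 3 of the 9 genes. The stretches run 5′ to 3′ on the strand of the gene and end at the last base before the annotated gene, chr3:132085042-132085291 for Dkk2 and chr19:30549666-30549746 for Dkk1, and capitals mark a TATAAA match.
Dkk2 promoter: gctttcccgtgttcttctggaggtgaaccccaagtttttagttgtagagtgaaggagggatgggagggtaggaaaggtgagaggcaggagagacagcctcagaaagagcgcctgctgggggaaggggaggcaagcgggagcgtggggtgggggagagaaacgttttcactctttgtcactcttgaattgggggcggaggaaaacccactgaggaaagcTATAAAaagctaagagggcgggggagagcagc
Dkk1 promoter: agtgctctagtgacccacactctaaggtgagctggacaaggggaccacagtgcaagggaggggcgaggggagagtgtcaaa
The TATAAA match in Dkk2 begins 32 bases before the annotated start, and 7.55% of 32544 RefSeq promoters hold these letters on that strand in a window of 250 bases. The Tcf/Lef core, searched on both strands as CTTTG followed by AA, AT, TA or TT, had 0 matches in either stretch, where 14.9% of windows of 250 bases and 5.44% of windows of 81 bases hold one. No match says only that these letters are not in these windows.

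Dkk1, the best known inhibitor of Lrp5 and Lrp6, was highest in odontoblasts and, except in the E15.5 mandibular library, higher in the papilla than in the other named classes. With a lower clustering resolution, Dkk1 did not stay highest in the papilla of the E15.5 maxillary library. In P1 odontoblasts its level was 492 CPM (474 to 510) in the maxillary library and 602 CPM (573 to 632) in the mandibular one, and 93.8% and 99.2% of the cells had a UMI of it. After thinning each cell to 2000 UMIs these shares were 53.3% and 64.3%, against 0.385% and 0% in erythroid cells. In the papilla the levels were 105 CPM (92.8 to 118) in the E15.5 maxillary, 23.3 CPM (16.2 to 32.3) in the E15.5 mandibular, 86.9 CPM (84.0 to 89.9) in the P1 maxillary and 63.4 CPM (60.2 to 66.6) in the P1 mandibular library. In each library the papilla had more Dkk1 than the follicle, which held 7.72, 1.09, 5.21 and 9.19 CPM in the same order. Bone held 8.32, 14.7 and 5.96 CPM in the E15.5 maxillary, E15.5 mandibular and P1 mandibular libraries, and in the E15.5 mandibular library the interval of the papilla overlapped those of bone and of chondrocytes (13.8 CPM, 9.83 to 18.7). There 2.44% of papilla cells and 3.81% of chondrocytes had a Dkk1 UMI after thinning. Knot-marker epithelium, ameloblast lineage, stellate reticulum and stratum intermedium (SR/SI), oral epithelium and endothelium each had a measured level of at most 3.03 CPM in any library, below the highest erythroid value. Some small E15.5 classes with a count of 0 cannot be placed below that value. The count allows up to 7.66 and 10.0 CPM in the maxillary and mandibular knot-marker clusters. It allows up to 6.54 CPM in mandibular SR/SI and 7.15 CPM in mandibular outer or oral epithelium. Epithelium that took no name held up to 6.31 CPM.

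Dkk1 was uneven within the papilla. Over the 7 papilla clusters of the P1 maxillary library it ran from 10.4 CPM in a cluster led by Gabrg3 and Pappa (481 cells) through a median of 91.7 CPM to 125 CPM in a cluster led by Col19a1 and Grik1 (674 cells). Over the 7 papilla clusters of the P1 mandibular library it ran from 9.14 CPM in a cluster led by Hpse2 and Nts through a median of 63.7 CPM to 99.3 CPM in a dividing cluster led by Hist1h1b and Top2a. A mandibular cluster that took no name (251 cells, led by Mamdc2, Ifitm5, Smpd3 and Notum) lay between papilla and odontoblasts, at 319 CPM (302 to 336) with a UMI in 88.4% of its cells. At E15.5 the maxillary cluster led by Kirrel3 and Gabrg3 (221 cells) had 117 CPM and the one led by Lmo1 (40 cells) 54.9 CPM. Outside the tooth, a cluster of jaw mesenchyme led by Twist2 held 36.1 CPM, and the other 4 jaw mesenchyme clusters of that library at most 0.63 CPM.

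Dkk2, which inhibits Lrp6 more weakly than Dkk1 and can also activate it, had the opposite layout. The follicle held 428 CPM (419 to 437), 395 CPM (375 to 416), 289 CPM (276 to 302) and 243 CPM (216 to 273) in the E15.5 maxillary, E15.5 mandibular, P1 maxillary and P1 mandibular libraries. Jaw and facial mesenchyme held 433, 175 and 505 CPM in the first 3 of these libraries, where the 175 CPM came from the E15.5 mandibular class with a doubtful cluster. Connective tissue fibroblasts held 279, 262, 152 and 176 CPM, and tendon cells 171, 167 and 204 CPM in the libraries that had them. The papilla was lower, at 33.3, 76.4, 88.9 and 146 CPM. In P1 odontoblasts the level was 24.6 CPM (20.8 to 29.0) in the maxillary library and 1.09 CPM in the mandibular library, where it rested on 3 UMIs in 129 cells. Named dental and oral epithelial classes of at least 50 cells held at most 6.14 CPM.

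Single clusters reached higher Dkk2 levels than their class. In the E15.5 maxillary library a follicle cluster led by Kcnip4 (246 cells) had 878 CPM (842 to 915), while the lowest of the 6 follicle clusters, with Bmper and Sostdc1 among its leading genes, had 85.2 CPM. In the P1 maxillary library 2 jaw mesenchyme clusters led by Lrriq1 and by Pax3 had 789 and 744 CPM. The unshared barcodes of that library carried more Dkk2 than the shared ones in follicle (414 against 178 CPM) and in connective tissue fibroblasts (398 against 94.4 CPM), so its class levels there depend on the mixture.

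**Figure D2:**
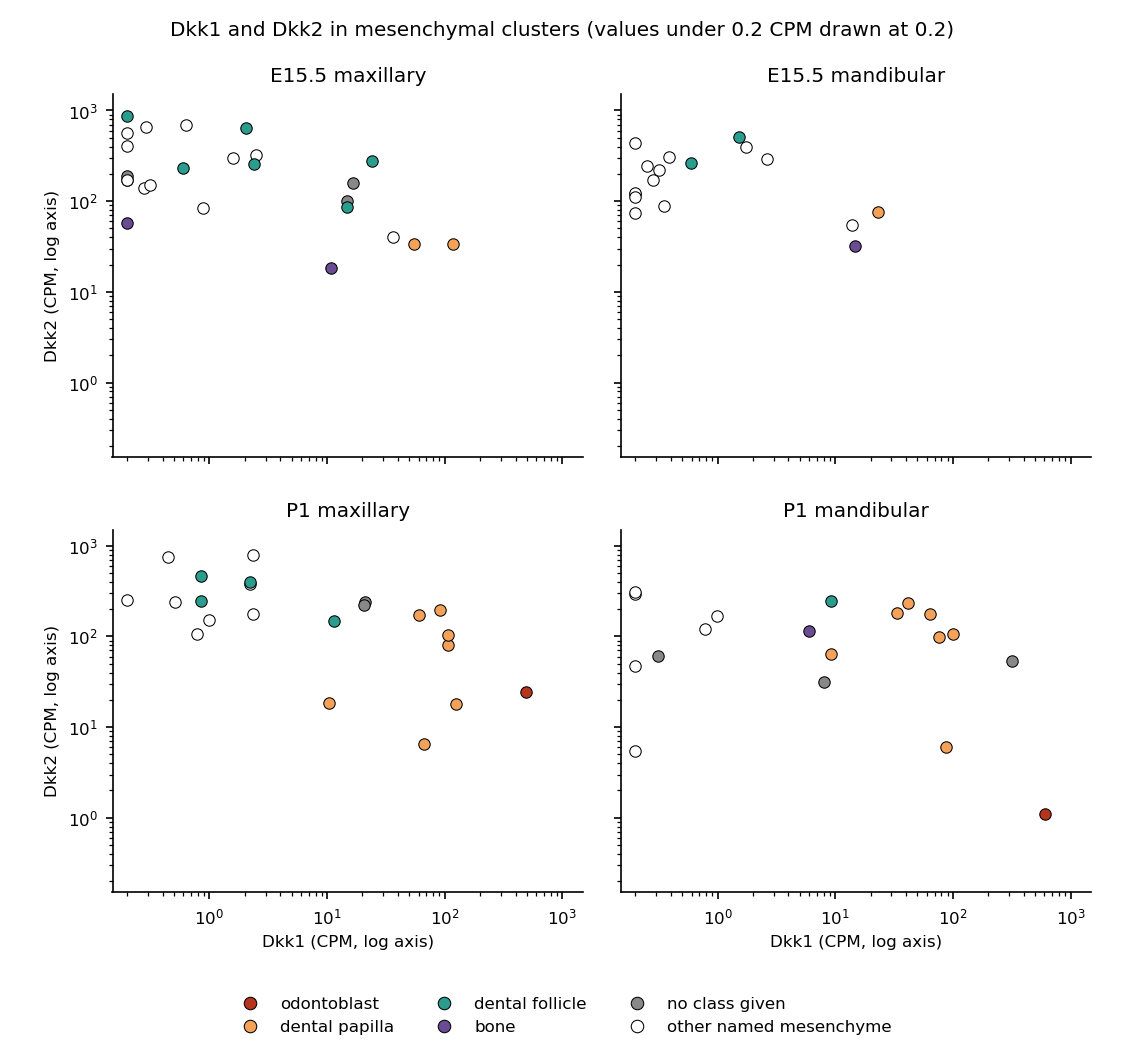
Dkk1 (horizontal, CPM, log axis) against Dkk2 (vertical, CPM, log axis) in every mesenchymal cluster of at least 15 cells, 1 panel per library, with values under 0.2 CPM drawn at 0.2. Odontoblasts lie at the lower right, and follicle clusters at the upper left with Dkk1 at most 24.0 CPM. Most papilla clusters lie between them, but single ones, such as those at 9.14 and 10.4 CPM of Dkk1 at P1, lie in the range of the follicle.

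The log2 ratio of Dkk1 to Dkk2 UMIs, read only between classes, was 4.32 and 9.11 in the maxillary and mandibular odontoblasts. The second rests on 3 Dkk2 UMIs (1.09 CPM), which is below the 2.20 CPM of erythroid cells in that library. In the papilla it was 1.66, -1.72, -0.03 and -1.20 in the E15.5 maxillary, E15.5 mandibular, P1 maxillary and P1 mandibular libraries. In the follicle it was -5.79, -8.50, -5.79 and -4.73. The order was odontoblast, papilla, follicle in every library that had the classes, with the doubts on the names of the P1 maxillary odontoblast and follicle and of both mandibular papilla classes given above. Bone was at -1.70, -1.11 and -4.26 in the E15.5 maxillary, E15.5 mandibular and P1 mandibular libraries. Its E15.5 mandibular interval (-1.76 to -0.48) overlapped that of the papilla, as did that of chondrocytes (-2.54 to -1.49). Over the papilla class as a whole, 17.4% of P1 maxillary and 20.1% of P1 mandibular papilla cells had UMIs of both transcripts. The product of the separate shares of cells with Dkk1 and with Dkk2 was 14.1% and 19.4%.

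Dkk3 was highest in the follicle and also present in other mesenchyme. The follicle held 103 CPM (98.8 to 108), 137 CPM (125 to 150), 155 CPM (146 to 165) and 171 CPM (149 to 196) in the E15.5 maxillary, E15.5 mandibular, P1 maxillary and P1 mandibular libraries, the highest of the classes with at least 50 cells in all 4 (after thinning, chondrocytes came first in the E15.5 maxillary library). In the P1 mandibular library its interval overlapped those of tendon (138 CPM) and bone (135 CPM, 113 to 160), and a tendon cluster led by Kera had 242 CPM. In the P1 maxillary follicle the shared barcodes held 211 CPM and the unshared ones 92.4 CPM. In the E15.5 maxillary library bone (73.8 CPM), chondrocytes (72.1 CPM) and tendon (60.1 CPM) did not differ beyond their intervals, in the E15.5 mandibular library bone (42.2 CPM) and tendon (41.5 CPM) overlapped the papilla, and P1 maxillary jaw mesenchyme held 67.6 CPM. The papilla held 46.9, 36.5, 41.0 and 45.0 CPM in the 4 libraries, and odontoblasts were lower, at 9.96 and 5.08 CPM. Dkk3 UMIs were also found in dental epithelium, with 91.9 and 36.8 CPM in the E15.5 knot-marker clusters, 32.9 and 50.2 CPM in the P1 knot-marker epithelium and 15.4 and 30.0 CPM in the P1 ameloblast lineage. Mesenchyme markers, summed over 7 genes, were at 993 CPM (led by Col3a1 at 416 CPM), 140 CPM, 420 CPM and 274 CPM in these 4 knot-marker classes and at 382 and 371 CPM in the ameloblast lineage, against 3906 CPM in the E15.5 maxillary papilla, and their part in the Dkk3 level was not tested. Dkk2 in the same E15.5 maxillary cluster was 15.3 CPM (5.62 to 33.3), with all 6 UMIs in 1 cell. Endothelium held 0.598 to 2.48 CPM.

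Dkk4, a Dickkopf of epithelial placodes and signalling centers, was nearly confined to the E15.5 knot-marker clusters among the cells kept. In the maxillary cluster it had 30 UMIs in 31 cells, or 76.6 CPM (51.7 to 109), and 35.5% of the cells had one. Those were 30 of the 39 Dkk4 UMIs of that library. In the mandibular cluster it had 7 UMIs in 18 cells, or 23.4 CPM (9.41 to 48.2), which were 7 of 7. At P1 the knot-marker epithelium held 1 UMI in 360 maxillary cells and 0 in 89 mandibular cells, where a count of 0 allows up to 3.07 CPM. The remaining E15.5 maxillary UMIs included 4 in suprabasal and 3 in other epithelium, and erythroid cells had 0, which allows up to 0.395 CPM. With 31 and 18 cells these clusters were below the minimum of 50 cells for a comparison between conditions.

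Kremen1 and Kremen2, the receptors that bind Dickkopfs, were both high in the knot-marker clusters, and otherwise differed in breadth. Kremen1 had 181 CPM (142 to 229) and 87.0 CPM (56.8 to 127) in the E15.5 knot-marker clusters, and 63.7 CPM (57.1 to 70.9) and 132 CPM (110 to 157) in the P1 knot-marker epithelium. A P1 mandibular knot-marker cluster led by Megf11 and Dab1, with Edar and Fgf9 among its leading genes (42 cells), reached 209 CPM. In the ameloblast lineage it had 55.2 and 64.4 CPM, with 99.7 CPM in the mandibular cluster led by the enamel gene Enam. All but 2 of the 226 maxillary cells of this lineage were shared. In the papilla it had 30.2, 29.9, 21.1 and 26.5 CPM and in the follicle 34.4, 61.9, 38.4 and 44.3 CPM in the order E15.5 maxillary, E15.5 mandibular, P1 maxillary, P1 mandibular. Tendon was lowest among mesenchymal classes, at 5.23, 6.04 and 5.93 CPM. Muscle held 35.6, 27.2, 61.7 and 53.6 CPM in the order used for the papilla. Its P1 maxillary level lay within the interval of the knot-marker epithelium of that library.

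Kremen2 was nearly absent from mesenchyme, with a measured level of at most 1.04 CPM in papilla, follicle, bone, fibroblasts and odontoblasts of any library. A count of 0 allows up to 1.16 and 1.99 CPM in the E15.5 maxillary and mandibular papilla. It allows up to 2.98 CPM in P1 mandibular bone and 1.09 CPM in P1 mandibular odontoblasts. The P1 mandibular follicle had 1 UMI, or 0.84 CPM (0.02 to 4.66). In the knot-marker clusters Kremen2 had 38.3, 33.5, 10.6 and 41.0 CPM in the order used above. In E15.5 maxillary epithelium it was also present in outer or oral epithelium (22.3 CPM, 18.5 to 26.7) and in suprabasal oral epithelium (18.8 CPM), where 1 cluster of 33 cells led by Krt79 had 115 CPM (85.7 to 150.4). Muscle held 15.46, 6.90 and 16.3 CPM in the first 3 libraries and 0 in the P1 mandibular library, which allows up to 1.28 CPM.

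Lrp4 was highest in the same clusters at E15.5. In the E15.5 knot-marker clusters it had 357 CPM (301 to 422) in the maxillary library, with a UMI in 83.9% of the cells, and 134 CPM (95.6 to 182) in the mandibular library. The next maxillary epithelial cluster, led by Krt8 and Tspear (22 cells), had 178 CPM (129 to 240), and outer or oral epithelium as a whole 73.4 CPM (66.3 to 81.0). At P1 the knot-marker epithelium had 37.6 and 77.8 CPM. Among mesenchymal classes at P1, Lrp4 was highest in odontoblasts (in the mandibular library bone came first with only the minimum of 1000 UMIs as a cell filter), at 144 CPM (135 to 155) with a UMI in 83.0% of maxillary cells and 195 CPM (179 to 213) with a UMI in 94.6% of mandibular cells. Bone held 47.8, 78.8 and 138 CPM in the E15.5 maxillary, E15.5 mandibular and P1 mandibular libraries. The papilla had 17.0, 23.9, 39.9 and 56.0 CPM, with 95.4 and 111 CPM in the P1 maxillary and mandibular papilla clusters that had Grm8, Enpp6 and the alkaline phosphatase gene Alpl among their leading genes.

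**Figure D3:**
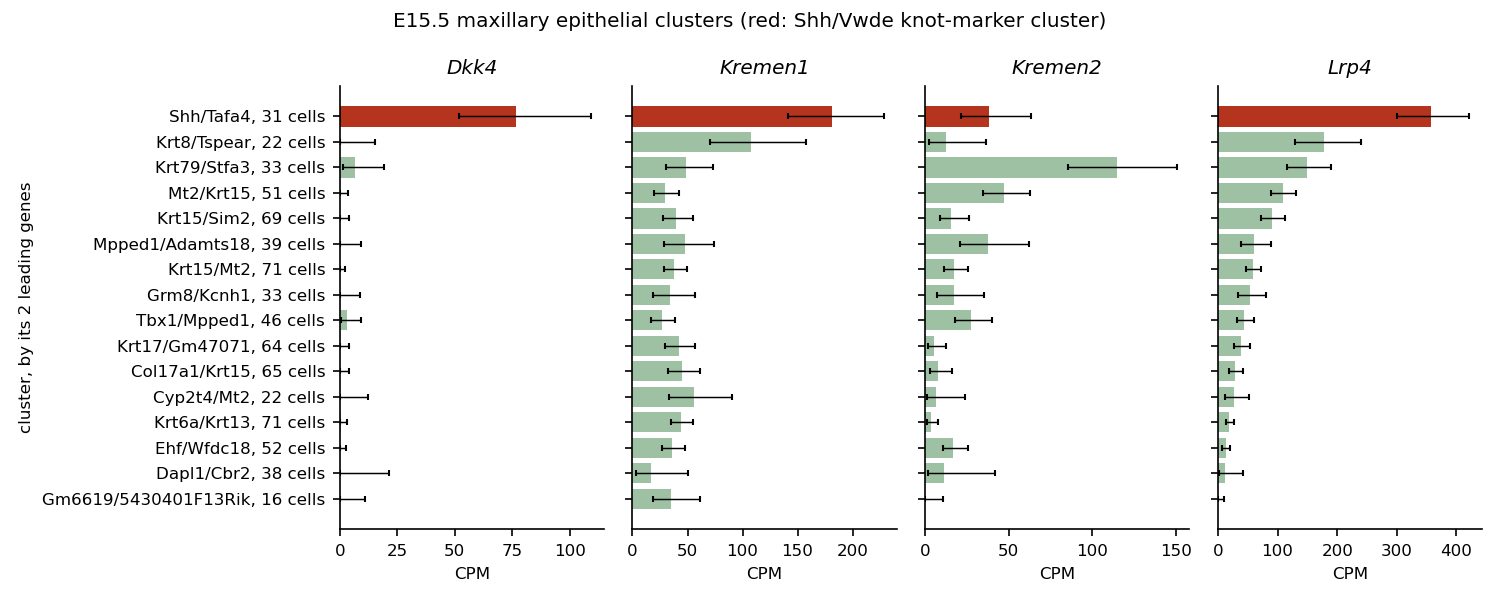
Dkk4, Kremen1, Kremen2 and Lrp4 (CPM, bars with exact 95% Poisson intervals) in the E15.5 maxillary epithelial clusters of at least 15 cells, each named by its leading genes and number of cells. The Shh and Vwde cluster (red, 31 cells) has the highest Dkk4 (76.6 CPM), Kremen1 (181 CPM) and Lrp4 (357 CPM), while Kremen2 is highest in the Krt79 cluster (115 CPM).

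Lrp5 and Lrp6, the Wnt co-receptors, had UMIs in every named class. Lrp6 ran from 48.2 to 166 CPM over the named classes of at least 50 cells other than erythroid cells. Connective tissue fibroblasts held 103, 125, 142 and 166 CPM, the papilla 80.2, 108, 104 and 101 CPM, odontoblasts 59.8 and 61.0 CPM and muscle 48.6, 52.9, 48.2 and 69.8 CPM. Among classes of at least 50 cells Lrp5 was highest in endothelium, at 46.7 CPM (40.1 to 54.1), 60.1 CPM (52.0 to 69.0), 73.3 CPM (64.3 to 83.3) and 104 CPM (88.7 to 122), although its P1 maxillary interval overlapped that of jaw mesenchyme (70.9 CPM), which came first after thinning. Lrp5 was low in the P1 ameloblast lineage, at 8.33 and 15.7 CPM, and in odontoblasts, at 19.9 and 8.71 CPM, against 39.9 and 30.1 CPM in the papilla of the same libraries. A small E15.5 mandibular cluster of outer or oral epithelium (25 cells) held 136 CPM of Lrp5.

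The log2 ratio of Lrp5 to Lrp6 UMIs was nearest to 0 in the endothelium. It was -0.36, -0.40, 0.09 and 0.20 there in the E15.5 maxillary, E15.5 mandibular, P1 maxillary and P1 mandibular libraries. In connective tissue fibroblasts it was -2.64, -3.09, -2.54 and -2.72, in the papilla -1.504, -2.30, -1.39 and -1.75, in odontoblasts -1.58 and -2.81 and in the ameloblast lineage -3.37 and -2.42. The endothelial interval overlapped none of the intervals of these classes in the same library. Among the other classes it overlapped, in the E15.5 maxillary library, those of suprabasal epithelium (-0.92, -1.26 to -0.58), pericytes (-1.08, -1.80 to -0.39) and tendon (-1.24, -1.98 to -0.54), and in both maxillary libraries the wide intervals of erythroid cells.

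**Figure D4:**
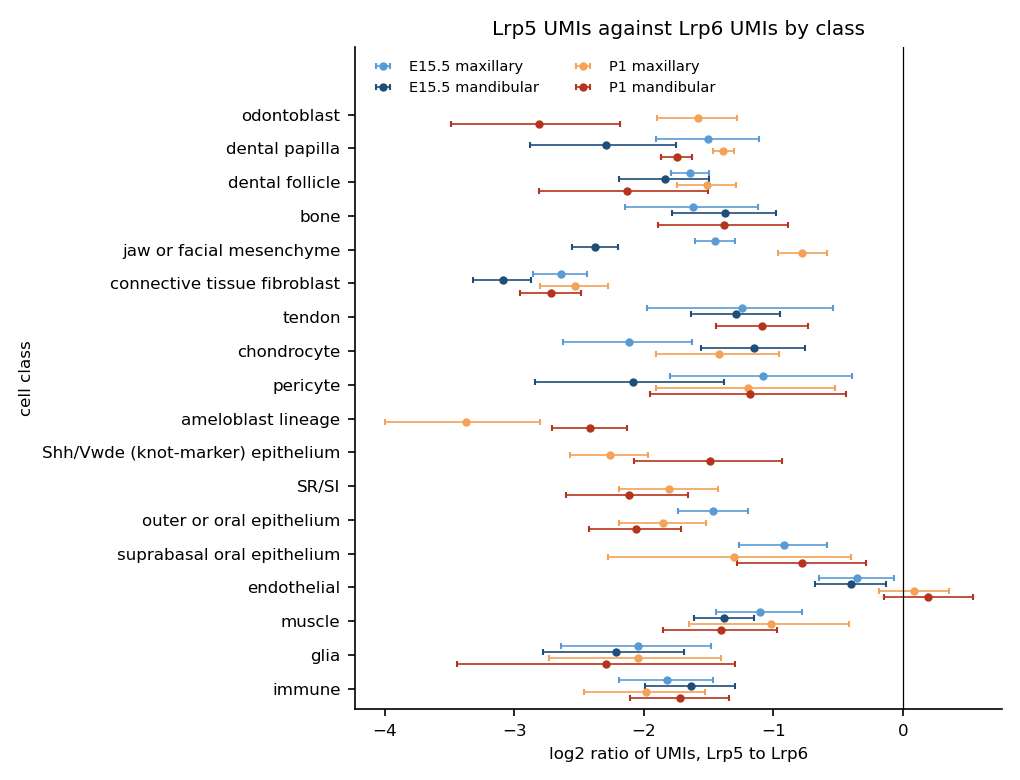
Log2 ratio of Lrp5 to Lrp6 UMIs (horizontal) in each class of at least 50 cells (vertical), with exact 95% binomial intervals and 1 color per library. Endothelial cells lie nearest to 0, at -0.40 to 0.20, and connective tissue fibroblasts at -3.09 to -2.54.

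Odontoblasts were then set against the papilla of the same P1 library. A gene was counted as past the fold when the ratio of levels was at least 1 on the log2 scale in size and the higher level at least 20 CPM. Of all genes tested, 24.8% in the maxillary library and 34.4% in the mandibular one were past the fold, with medians of -0.15 and -0.28, and of the 9 genes 7 reached the minimum in each. Dkk1 was higher in odontoblasts by 2.50 on the log2 scale (2.43 to 2.57) in the maxillary library and 3.25 (3.15 to 3.35) in the mandibular one. Lrp4 was higher by 1.86 (1.73 to 1.98) and 1.80 (1.66 to 1.95). Kremen1 was higher by 1.56 (1.38 to 1.73) in the maxillary library and by 0.91 (0.63 to 1.18), short of the fold, in the mandibular library. Dkk2 had a log2 ratio of -1.85 (-2.10 to -1.61) and -7.06 (-9.34 to -5.52), the second resting on 3 UMIs. Dkk3 had -2.04 and -3.15 and Lrp5 -1.003 and -1.79, all past the fold, and Lrp6 had -0.80 and -0.73, short of it.

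The mandibular comparison used no shared barcode, but its papilla class includes the doubtful cluster with Alx1. Over its 7 clusters Dkk1 was at most 99.3 CPM, against 602 CPM in the odontoblasts, and Dkk2 at least 6.02 CPM, against 1.09 CPM. In the maxillary library 7 odontoblasts and 33 papilla cells were unshared, with Dkk1 at 442 CPM (277 to 669) and 49.1 CPM (21.2 to 96.8) and Lrp4 at 241 CPM (125 to 421) and 49.1 CPM (21.2 to 96.8). For the other genes the maxillary differences are given without unshared values and rest almost wholly on shared barcodes. The summed bone markers, 642 and 860 CPM in the papilla against 3495 and 7916 CPM in odontoblasts, moved with these differences, and their part in them was not tested.

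**Figure D5:**
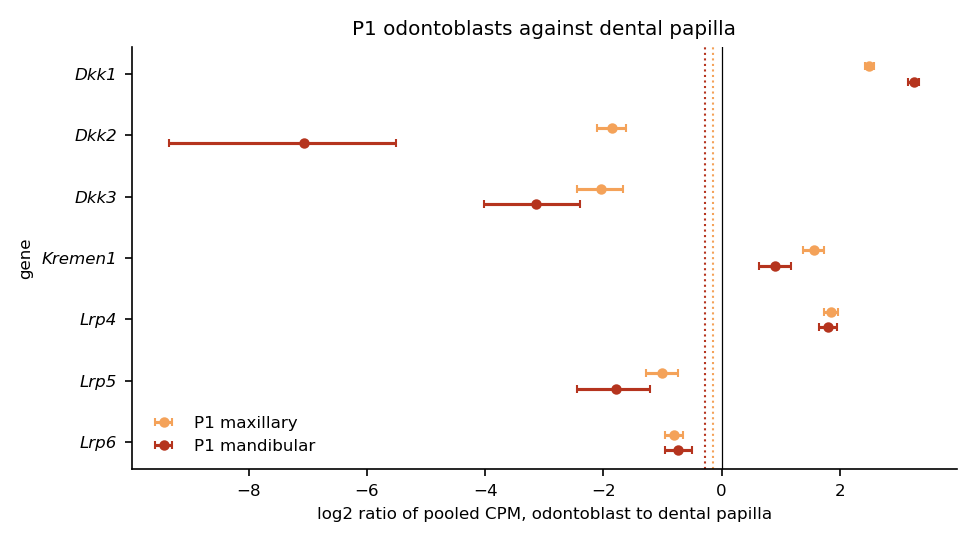
Log2 ratio of pooled CPM between P1 odontoblasts and papilla of the same library (horizontal) for the 7 genes that reached the minimum level, with exact 95% binomial intervals, and dotted lines at the median of all genes tested. Dkk1, Kremen1 and Lrp4 lie to the right of 0 and Dkk2, Dkk3, Lrp5 and Lrp6 to the left in both libraries.

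Between stages, 20 comparisons of a class within 1 jaw were possible, with 97 values of the 9 genes over the minimum level. Of these, 19 were past the fold with P1 higher and 5 with P1 lower. Over all genes in these comparisons, 9.75% of values were past the fold, 4.96% higher and 4.8% lower. In the maxillary papilla, where 11.3% of genes were past the fold, Dkk2 was higher at P1 (88.9 against 33.3 CPM, log2 ratio 1.42, 1.11 to 1.74) and so was Lrp4 (39.9 against 17.0 CPM, 1.23, 0.80 to 1.70). Dkk1 had a log2 ratio of -0.27 (-0.45 to -0.09) and Lrp6 of 0.38 (0.18 to 0.59) there. Nearly all P1 cells of this comparison carried shared barcodes. Summed bone markers were 1482 CPM at E15.5 (Runx2 at 1350.4 CPM) and 642 CPM at P1 in these classes, and odontoblast markers 204 and 446 CPM, and their part in the differences was not tested. With only the minimum of 1000 UMIs as a cell filter, and the clusters that followed from it, the Dkk2 ratio was -0.20, so its direction was not kept under that setting. The 33 unshared papilla cells had Dkk2 at 92.1 CPM (51.5 to 152) and Lrp4 at 49.1 CPM. Their Dkk1 level was also 49.1 CPM, with the interval given above. It lay further below the 105 CPM of E15.5 than the 86.9 CPM of the whole P1 class.

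In mandibular bone, with 10.7% of genes past the fold and no shared barcodes, Dkk2 was higher at P1 (114 against 31.6 CPM, log2 ratio 1.85, 1.41 to 2.30) and so was Dkk3 (135 against 42.2 CPM, 1.68, 1.29 to 2.08). The Dkk2 ratio was -0.35 under the same lighter filter. In the mandibular follicle, with 13.5% past the fold, Lrp4 was higher at P1 (56.0 against 23.7 CPM, 1.24, 0.76 to 1.72), while Dkk2 had a log2 ratio of -0.70 (-0.89 to -0.52). In maxillary outer or oral epithelium, with 13.5% past the fold, Kremen2 was lower at P1 (2.69 against 22.3 CPM, log2 ratio -3.05), and in the 90 unshared P1 cells it was 10.6 CPM (2.90 to 27.2). In maxillary suprabasal epithelium, with 13.2% past the fold, Lrp4 was lower at P1 (7.13 against 42.4 CPM, -2.57, -4.22 to -1.32), the P1 value resting on 5 UMIs, of which 1 was in the 62 unshared cells (4.38 CPM, 0.111 to 24.4). In endothelium, with 2.39% (maxillary) and 8.87% (mandibular) past the fold, Dkk2 was lower at P1 in both jaws (8.97 against 33.1 CPM and 12.0 against 27.2 CPM), with the UMIs in few cells (10 of 273 and 4 of 157 at P1, 29 of 306 and 12 of 243 at E15.5). Of the P1 maxillary endothelial cells 40.3% were shared, and the 163 unshared ones had Dkk2 at 15.55 CPM (8.28 to 26.6) and Lrp4 at 46.6 CPM (33.2 to 63.8). Endothelial Lrp4 had log2 ratios of 0.94 (0.62 to 1.27) and 1.60 (1.17 to 2.03), of which the second was past the fold. The other values past the fold were Dkk3 in mandibular tendon (1.73), fibroblasts (1.50) and muscle (1.60), Dkk2 in maxillary chondrocytes (1.28, but -0.76 with an added limit on detected genes) and Kremen1 in mandibular fibroblasts (1.11) and endothelium (1.25) and in maxillary pericytes (1.53, where the 104 unshared P1 cells held 27.2 CPM, 11.7 to 53.6, against 12.1 CPM at E15.5). In mandibular pericytes Dkk2 (3.03), Kremen1 (2.19), Lrp4 (1.20, with an interval of -0.17 to 2.59) and Lrp5 (1.20) were higher at P1. In mandibular glia Kremen1 (1.13) and Lrp4 (1.54) were higher and Dkk2 (-3.45) was lower at P1. The share of all genes past the fold was 13.5% in mandibular tendon, 9.37% in fibroblasts, 7.12% in muscle, 16.6% in pericytes and 15.2% in glia, and 14.7% in maxillary chondrocytes and 8.04% in maxillary pericytes. Lrp6 was tested in all 20 comparisons and was past the fold in 0, and Dkk1 reached the minimum level in the maxillary papilla alone.

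Between jaws, 21 comparisons within 1 stage gave 92 values over the minimum level, of which 4 were past the fold with maxillary higher and 9 with mandibular higher. Over all genes, 6.63% of values were past the fold, 3.19% higher and 3.44% lower in the maxillary library. In the P1 knot-marker epithelium, with 10.9% of genes past the fold, the maxillary library was lower in Kremen1 (63.7 against 132 CPM, log2 ratio -1.05, -1.35 to -0.75), Kremen2 (10.6 against 41.0 CPM, -1.95, -2.56 to -1.33) and Lrp4 (37.6 against 77.8 CPM, -1.05, -1.44 to -0.65). Here 347 of the 360 maxillary cells were shared, and the 13 unshared ones had Kremen1 at 223 CPM (107 to 410), Kremen2 at 22.3 CPM (0.564 to 124) from 1 UMI and Lrp4 at 44.6 CPM (5.40 to 161) from 2 UMIs. The interval of the unshared Kremen1 level includes the mandibular level. At E15.5 the follicle of the jaws differed by 0.11 (0.03 to 0.20) in Dkk2, -0.41 (-0.55 to -0.26) in Dkk3 and -0.85 (-1.07 to -0.62) in Kremen1, all short of the fold. The values past the fold at E15.5 were Dkk3 in chondrocytes (72.1 against 25.8 CPM, with an interval of 1.05 to 1.92 for the log2 ratio) and muscle (1.42, 1.00 to 1.84), Lrp4 in chondrocytes (-1.63, -2.45 to -0.90) and tendon (-1.17) and Dkk2 in pericytes (1.70). Both Lrp4 values changed sign under another setting, to 0.24 in chondrocytes with the lighter filter and to 0.12 in tendon at a clustering resolution of 0.5. The remaining values past the fold were at P1, namely Dkk2, Kremen1 and Lrp4 in glia (56 mandibular cells, with Kremen1 at -2.25 but 0.27 after thinning), Dkk2 in pericytes (-1.01, or -0.62 with the 104 unshared maxillary cells) and Lrp5 in suprabasal epithelium (-1.27, with 13.1 CPM, 2.71 to 38.4, in the unshared maxillary cells against 51.5 CPM). In glia Dkk2 was higher in the maxillary library (77.9 against 6.26 CPM, the second from 4 UMIs in 2 cells). Lrp4 was lower there (9.85 against 36.0 CPM). The share of all genes past the fold was 18.5% in E15.5 chondrocytes, 2.22% in muscle, 7.96% in pericytes and 3.25% in tendon, and 14.5% in P1 glia, 8.57% in pericytes and 17.8% in suprabasal epithelium.

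Other genes of the pathway, from lists chosen for their roles, were followed in the same comparisons. Between odontoblasts and papilla, 8.11% of all genes were higher and 16.6% lower past the fold in the maxillary library, and 11.5% higher and 22.9% lower in the mandibular one, so lower calls were the more common ones for genes in general. With 1 to 9 genes tested a list, the counts below are given beside these shares as a description. Of the 9 further modulators of Lrp5 and Lrp6, 5 reached the minimum between odontoblasts and papilla in each library, and 1 was higher and 2 lower past the fold in both. The BMP pseudoreceptor gene Bambi was higher in odontoblasts (705 and 779 CPM against 316 and 368 CPM). Sostdc1, an inhibitor that binds Lrp4, Lrp5 and Lrp6, was lower (4.22 and 0.73 CPM against 97.9 and 84.7 CPM). Sostdc1 was also lower in the P1 than in the E15.5 maxillary papilla, where it had 1258 CPM. Sost, the gene of sclerostin, had 0.17 and 10.2 CPM in odontoblasts. Of the 5 other Wnt-binding antagonists tested, 2 were higher and 3 lower in maxillary and 1 was higher and 3 lower in mandibular odontoblasts. Notum, a Wnt-inactivating enzyme, was higher (388 and 272 CPM against 45.9 and 54.0 CPM), and the secreted Frizzled-related genes Sfrp2 (1.18 and 2.18 CPM against 40.9 and 127 CPM) and Frzb (9.12 and 5.08 CPM against 70.3 and 54.9 CPM) were lower.

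In the R-spondin arm, whose ligands raise Frizzled and Lrp levels at the membrane, 2 of 5 genes were higher and 2 lower in odontoblasts of each library, where 8.11% and 11.5% of all genes were higher and 16.6% and 22.9% lower. The ligand genes Rspo2 and Rspo4 were the lower ones, at 39.2 and 1.82 CPM for Rspo2 and 33.1 and 6.17 CPM for Rspo4, against 528 and 232 CPM and 377 and 372 CPM in the papilla. Of the Frizzled receptors, 0 were higher and 1 of 4 (maxillary, 16.6% of all genes lower past the fold) and 3 of 5 (mandibular, 22.9%) were lower. Of 9 canonical Wnt target genes tested, 4 were higher and 2 lower in maxillary and 1 was higher and 2 lower in mandibular odontoblasts, the latter near the share of all genes past the fold. Axin2, the usual readout gene of the pathway, had 25.7 and 25.1 CPM in odontoblasts and 13.7 and 13.3 CPM in the papilla, short of the fold. Agrn, the gene of the Lrp4 ligand agrin, was the 1 gene of its list over the minimum, at 19.7 and 8.71 CPM in odontoblasts against 34.7 and 34.4 CPM in the papilla. The median log2 ratios of the lists in the maxillary and mandibular libraries were -0.11 and -0.01 for the modulators, -2.95 and -2.48 for the antagonists, 0.07 and 0.89 for the R-spondin arm, -0.73 and -1.22 for the Frizzled receptors and 0.91 and 0.41 for the targets, against -0.15 and -0.28 for all genes.

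The genes whose levels were most like each member were sought over 64 combinations of class and library of at least 50 cells, by Pearson's r of log2(CPM + 1) among 13107 genes. These points share libraries and differ in depth, and r is given as a description. They were Gm10629 (0.87), Smpd3 (0.86), which was among the odontoblast markers used for naming, and Notum (0.86) for Dkk1. For Dkk2 they were the collagen genes Col6a3 (0.91) and Col3a1 (0.87) with Apod (0.88), and for Dkk3 Gm32618 (0.88), Sdc2 (0.87) and Sobp (0.87). Kremen1 was most like Gtf2ird1 (0.88), Znrf3 (0.85) and Setd7 (0.83), and Kremen2 like Barx2 (0.80), Frmpd1 (0.75) and Gm43824 (0.74). Lrp4 was most like Tanc1 (0.78), Btg3 (0.77) and Ptpn4 (0.77), Lrp5 like Map3k3 (0.92), Eif2ak4 (0.90) and Mbtps2 (0.89), and Lrp6 like Tbck (0.98), Kdm4c (0.97) and Kmt2c (0.97).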

How the data were processed

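The authors deposited raw UMI counts per gene and barcode, made with Cell Ranger against mm10 (the version is not given in the sources used here). Barcodes with at least 1000 UMIs were kept, 6690 shared barcodes were dropped from the P1 mandibular library, and cells over 3 median absolute deviations of the mitochondrial share or called as doublets by Scrublet were removed. Each library was clustered with Scanpy 1.11.5 (Leiden, resolution 1) without the 9 genes and other Wnt genes, and clusters were named from at least 3 detected markers of 23 marker lists. These naming thresholds were chosen with the clusters already in view. Counts were summed per class. Intervals were exact Poisson for levels, exact binomial for ratios and Clopper-Pearson for shares, at 95%. PCR duplicates were collapsed by UMI, and intervals cover counting error only. With 1 library per group no test was made. Named genes were the 9 members, the 3 genes most like each, and members of pathway lists. Members and lists were chosen with earlier results of these data known. Counts were also simulated for the odontoblast comparison in the P1 mandibular library (7232 genes tested). There 50 of 50 genes changed by 2 on the log2 scale passed the fold, and 0 of 7032 unchanged genes did. The simulated counts carried counting error only. They cannot show how differences between animals, libraries or cluster names affect the calls. Other choices tried were the filters, resolution, scaling, subtraction of the immune and erythroid level, thinning, the fold and the handling of shared barcodes.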

Additional observations from a re-analysis of the deposited data

Results flagged for a closer look

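In pericytes, Dkk2 differed between jaws in opposite directions at the 2 stages. The maxillary minus mandibular log2 ratio was 1.703 at E15.5 (64.5 against 19.8 CPM) and -1.006 at P1 (80.5 against 162 CPM). Of the 175 P1 maxillary pericytes 71 (40.6%) carried barcodes shared with the mandibular library. The 104 unshared ones held 105 CPM (71.6 to 150), for a log2 ratio of -0.6173, short of the fold. The difference between the stages was not tested, since each value comes from 1 library per stage and jaw.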

How the results depend on the processing

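No paired analysis was possible because each stage and jaw had 1 library. Of 2689 alternative values of single genes, 2499 stayed past the fold in the same direction or stayed short of it. For values that stayed short of the fold a change of sign was not counted. A further 105 newly passed it, 75 no longer passed it and 10 reversed. A reversed value changed sign and was past the fold in the main analysis, in the alternative or in both. The cause was not tested for any of these changes. With only the minimum of 1000 UMIs as a filter, the stage difference of Dkk2 reversed in maxillary papilla (-0.1989) and mandibular bone (-0.3464), and the E15.5 jaw difference of Lrp4 in chondrocytes (0.2406). A limit on detected genes reversed Dkk2 in maxillary chondrocytes between stages (-0.7575) and in E15.5 bone between jaws (2.237). Resolution 0.5 reversed Lrp4 in E15.5 tendon (0.1179). Thinning reversed Lrp5 in P1 SR/SI (-1.265) and Kremen1 in P1 glia (0.2651). Dropping shared barcodes from both P1 libraries reversed Lrp6 in the ameloblast lineage (-1.123) and left no P1 maxillary odontoblast or papilla class, and the unshared barcodes alone, an alternative chosen after seeing the data, reversed Dkk2 in P1 fibroblasts (1.177).

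Of the 9 genes, the same class stayed highest for 3 (UMI minimum only) and 5 (resolution 0.5) in the E15.5 maxillary library, and for 4 (shared barcodes dropped from both) and 5 (unshared only) in the P1 maxillary library. The E15.5 changes were in Dkk4, Kremen1, Kremen2, Lrp4, Lrp5 and Lrp6 (knot-marker epithelium first) and in Dkk1, Kremen1, Kremen2 and Lrp6, and the P1 changes in Dkk1, Dkk4, Kremen1 and Lrp6, with Dkk2 also where shared barcodes were dropped from both. The E15.5 maxillary knot-marker cluster had 31 cells in the main analysis. There it already held more Dkk4, Kremen1, Kremen2, Lrp4 and Lrp5 than any class of at least 50 cells. For these genes its first place is therefore a change only in a ranking that leaves out smaller classes. The 19 values higher at P1 became 10 with a log2 fold of 1.5. The background subtracted in this section was the pooled level of immune and erythroid cells of each library. Immune cells held Lrp6 at 62.5 to 99.3 CPM, above the erythroid level given earlier. The 5 lower at P1 became 9 with the UMI minimum only, 8 with the mean of per-cell CPM, 9 with background subtracted and 12 with no minimum level. The percentage of all genes past the fold between stages, 9.75, became 24.1 with background subtracted, 17.8 thinned, 20 with no minimum level and 4.6 with a fold of 1.5.

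Between jaws, the 4 values higher in the maxillary library became 9 with the UMI minimum only, 7 with per-cell CPM, 9 with shared barcodes dropped from both, 7 thinned, 19 with no minimum level, 2 with a fold of 1.5 and 7 with unshared barcodes. The 9 lower values became 5 with the UMI minimum only, 5 at resolution 0.5, 5 with shared barcodes kept in both, 18 with background subtracted, 15 with no minimum level and 4 with a fold of 1.5. The percentage of all genes, 6.63, became 12.3 with shared barcodes dropped from both, 15.6 with background subtracted, 17.7 thinned, 16.4 with no minimum level, 3.09 with a fold of 1.5 and 11.9 with unshared barcodes.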

Other observations

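Olfactory epithelium was found in the P1 maxillary library alone (385 cells) and had more Lrp4 than any other named class there, at 211 CPM (191 to 232).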
